A study of Mus musculus with 22 samples.

Results

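The axon guidance genes described here are the ligands and receptors of the semaphorin, ephrin, Slit and netrin systems. Their rows were chosen by gene name, as protein-coding genes whose symbol begins with Sema, Plxn, Efna, Efnb, Epha, Ephb or Unc5, or with Slit or Robo followed by a digit, together with Nrp1, Nrp2, Ntn1, Ntn4 and Dcc. The rule uses names alone, but these families were picked with earlier results of the same data known. They were 69 of the 39056 genes counted. By family there were 20 semaphorins, 8 ephrins, 3 Slits and 2 netrins among the ligands, and 14 Eph receptors, 9 plexins, 7 Unc5 or Dcc genes, 4 Robos and 2 neuropilins among the receptors. The spelling rule also caught Unc50 and Unc5cl, which are not netrin receptors. Of the 69 genes, 64 had enough counts to be tested, and Epha1, Epha2, Efna4, Sema3g and Unc5cl did not.

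Guidance ligands are secreted or membrane-bound proteins that steer growing axons by attraction or repulsion, and receptors on the growth cone pass the signal to the actin and tubulin cytoskeleton. Semaphorins act through plexins, the class 3 semaphorins with neuropilins as coreceptors, ephrins through the Eph receptor tyrosine kinases, Slits through Robos, and netrins through Dcc and the Unc5 receptors. In the adult cortex many of these genes stay on, where the proteins are known for roles at dendritic spines and synapses and in vessels and glia.

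RNA of the prefrontal cortex (PFC) was sequenced from 11 adult male mice aged 8 to 12 weeks on a C57BL/6J background. All of them, controls included, carried 2 transgenes, tetO-EGFP/Rpl10a and CaMKIIα-tTA, so that the ribosomal protein Rpl10a bears an EGFP tag in cells in which the CaMKIIα promoter drives the tTA activator. Control mice (n = 3) received saline, EtOH mice (n = 4) received ethanol at a daily dose of 2 g/kg, and EtOH + ABT-888 mice (n = 4) received the same ethanol with ABT-888, an inhibitor of the poly-ADP ribose polymerases (PARP), at 25 mg/kg on day 4 only. Injections were intraperitoneal, 2 per day over 4 days with 2 h between them, and tissue was taken 2 h after the last. Each mouse gave a TRAP library, from ribosomes pulled down with antibodies against EGFP, and a total-RNA library, from the lysate before the pull-down, which makes 22 libraries in 6 groups. The study asked how EtOH, and EtOH with ABT-888, changed the RNA held by ribosomes and the total RNA.

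The start regions of the 5 genes that passed the test for EtOH in TRAP are shown first. Each sequence holds the 250 bases before and the 50 bases after a RefSeq transcript start on GRCm38.p6, 5′ to 3′ on the gene's strand. Capitals mark matches to GCGNGGGCG, the site bound by transcription factors of the EGR family, which activity induces in neurons.
Sema7a: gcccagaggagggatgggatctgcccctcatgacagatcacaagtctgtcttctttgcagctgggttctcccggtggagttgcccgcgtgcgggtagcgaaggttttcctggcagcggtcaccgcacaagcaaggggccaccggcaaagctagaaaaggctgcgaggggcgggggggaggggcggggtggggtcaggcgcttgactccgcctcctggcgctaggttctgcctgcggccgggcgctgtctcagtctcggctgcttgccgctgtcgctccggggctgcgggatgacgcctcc
Plxnc1: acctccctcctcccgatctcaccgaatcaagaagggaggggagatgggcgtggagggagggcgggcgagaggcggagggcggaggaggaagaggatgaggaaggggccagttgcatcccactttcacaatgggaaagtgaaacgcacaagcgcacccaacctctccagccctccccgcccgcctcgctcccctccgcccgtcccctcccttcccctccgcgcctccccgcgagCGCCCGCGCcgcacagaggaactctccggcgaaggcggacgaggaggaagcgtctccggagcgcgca
Sema5a: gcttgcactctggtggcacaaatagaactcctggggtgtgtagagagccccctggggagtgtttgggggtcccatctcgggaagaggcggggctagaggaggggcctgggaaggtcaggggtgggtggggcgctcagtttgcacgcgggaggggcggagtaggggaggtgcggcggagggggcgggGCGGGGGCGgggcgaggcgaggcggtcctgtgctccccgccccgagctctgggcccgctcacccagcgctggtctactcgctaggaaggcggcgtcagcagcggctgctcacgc
Unc5c: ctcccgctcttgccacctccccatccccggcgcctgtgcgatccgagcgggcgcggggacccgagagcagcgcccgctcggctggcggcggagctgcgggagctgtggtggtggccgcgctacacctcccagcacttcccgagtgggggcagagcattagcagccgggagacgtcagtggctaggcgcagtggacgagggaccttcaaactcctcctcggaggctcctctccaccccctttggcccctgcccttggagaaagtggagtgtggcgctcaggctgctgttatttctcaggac
Epha8: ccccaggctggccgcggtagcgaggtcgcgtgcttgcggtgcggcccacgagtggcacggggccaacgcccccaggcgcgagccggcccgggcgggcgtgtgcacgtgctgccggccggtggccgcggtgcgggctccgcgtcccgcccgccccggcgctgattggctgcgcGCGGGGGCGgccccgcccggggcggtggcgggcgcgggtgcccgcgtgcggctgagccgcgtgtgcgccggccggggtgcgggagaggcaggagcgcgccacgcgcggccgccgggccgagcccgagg
These regions lie at chr9:57939862-57940161 on the plus strand for Sema7a, at chr10:94944796-94945095 on the minus strand for Plxnc1 and at chr15:32244563-32244862 on the plus strand for Sema5a. Those of Unc5c and Epha8 lie at chr3:141465314-141465613 on the plus strand and at chr4:136956767-136957066 on the minus strand. The start used for Unc5c lies 348 bases from the start of the gene in GENCODE, while the other 4 lie within 10 bases of it. All 5 windows were rich in G and C, from 67.3% in Sema7a to 84.3% in Epha8, against a median of 52.7% over 32851 promoters.

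The letters searched on both strands were GCGNGGGCG for the EGR site, TGANTCA for the AP-1 site, TGACGTCA for the cAMP response element and TATAAA for the TATA box. An EGR match stood in the windows of Plxnc1 (17 bases before the start), Sema5a (64 before) and Epha8 (78 before), and no window held a second match of any kind. Promoters were found for 59 of the 69 genes, 75 promoters in all. Of these, 14 held the EGR letters, as did 5.55% of all promoters. The AP-1 letters stood in 3 of the 75 (7.81% of all promoters), the TATA box in 2 (13.6%) and the cAMP response element in 1 (1.79%). The EGR letters are rich in G and C, and the shares were not compared at equal base composition.

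Counted reads ranged from 6570957 to 22002618 per TRAP library (median 15711482) and from 22132534 to 32421392 per total-RNA library (median 28734687). Values below are CPM, counts scaled to library size after TMM normalization, and a gene is called when its Benjamini-Hochberg adjusted p by edgeR's quasi-likelihood test, over all 14072 genes tested, is under 0.05. On the first principal component of total-RNA, which held 44.5% of the variance, EtOH + ABT-888 mouse 3 lay at 0.27, near the 3 Control libraries (0.35 to 0.40), while the other libraries of its group lay between -0.52 and -0.01. On the first component of TRAP (34.0% of the variance) EtOH + ABT-888 mouse 3 lay at 0.34, beside the Control libraries (0.29 to 0.33), with the other libraries of its group between -0.55 and 0.06. On the second, EtOH mouse 2 stood apart at -0.71, with the other 10 libraries between -0.34 and 0.34. Nothing in the labels says whether mice of a group were treated on the same day, and the p-values measure the spread between these mice.

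The study takes the TRAP pool as that of CaMKIIα-positive excitatory neurons, and it reports marker measurements from preliminary TRAP experiments in favour of this. In the libraries used here the markers went in part against that label. In Control mice, 4 of 6 excitatory markers were lower in TRAP than in total-RNA, among them Neurod6 (log2 fold change -2.23) and Slc17a7 (-1.13), while Nrgn was higher (1.20). Camk2a itself did not pass the test (-0.17). Of 6 inhibitory neuron markers, Gad1 (1.24), Gad2 (1.12) and Slc32a1 (2.52) were higher in TRAP and Pvalb was lower (-2.36), while Vip (-0.997) and Sst (-0.06) did not pass the test. The summed level of the 6 was 1824 to 1909 CPM in Control_TRAP against 800.2 to 863.2 CPM in Control_total-RNA. All astrocyte (6), oligodendrocyte (6), oligodendrocyte precursor (3), microglia (7), endothelial (5) and mural (4) markers were lower in Control_TRAP. The TRAP pool is therefore named below by its method and not by a cell type. The 5 markers of striatal projection neurons Drd1, Drd2, Adora2a, Ppp1r1b and Rgs9 were chosen after values were seen, so their median log2 fold change of 3.01 is a description only.

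In Control mice Sema7a was the most abundant ligand per kilobase of exon and Epha4 the most abundant receptor, in TRAP and in total-RNA. Next among the ligands of TRAP came Efnb3 and the semaphorin Sema6b (43.1 ± 12.2 CPM per kb), within their spread of each other, while in total-RNA Sema6b (19.99 ± 1.85) lay above Efnb3. Sema7a, a membrane-anchored semaphorin, stood at 75.6 ± 11.0 CPM per kb (SD, n = 3) in TRAP and at 43.8 ± 5.86 in total-RNA. Efnb3, a transmembrane ephrin, stood at 52.6 ± 14.1 in TRAP, and in total-RNA at 15.3 ± 0.844, within its spread of Efna3 at 14.6 ± 1.23. Epha4 had 55.8 ± 1.79 CPM per kb in TRAP and 50.5 ± 2.28 in total-RNA.

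Of the other families, the highest per kilobase in TRAP was Slit3 among Slits (32.5 ± 2.67), Unc5a among Unc5 and Dcc genes (26.1 ± 2.55), Robo2 among Robos (22.6 ± 0.638), Nrp1 among neuropilins (2.11 ± 0.269) and Ntn4 among netrins (1.11 ± 0.155). In total-RNA the same genes led for Slits (9.73 ± 0.457), Robos (16.4 ± 0.438), neuropilins (3.30 ± 0.339) and netrins (2.84 ± 0.642). Nrp1 in total-RNA lay within the spread of Nrp2 (2.88 ± 0.426), as did Ntn4 in TRAP of Ntn1 (0.756 ± 0.547). The spreads of Unc5a and Unc50 (23.1 ± 1.65) also overlapped in TRAP. Plxnd1 (18.1 ± 2.39) and Plxna2 (18.1 ± 1.69) could not be told apart as the leading plexins of TRAP, nor could Plxna2 (17.3 ± 0.490) and Plxna4 (17.02 ± 0.986) in total-RNA. Unc50, which is no netrin receptor, led its group in total-RNA at 15.9 ± 1.38 beside Unc5a at 15.5 ± 2.59. Netrins and neuropilins were thus the families with the lowest leading genes in both pools.

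**Figure D1:**
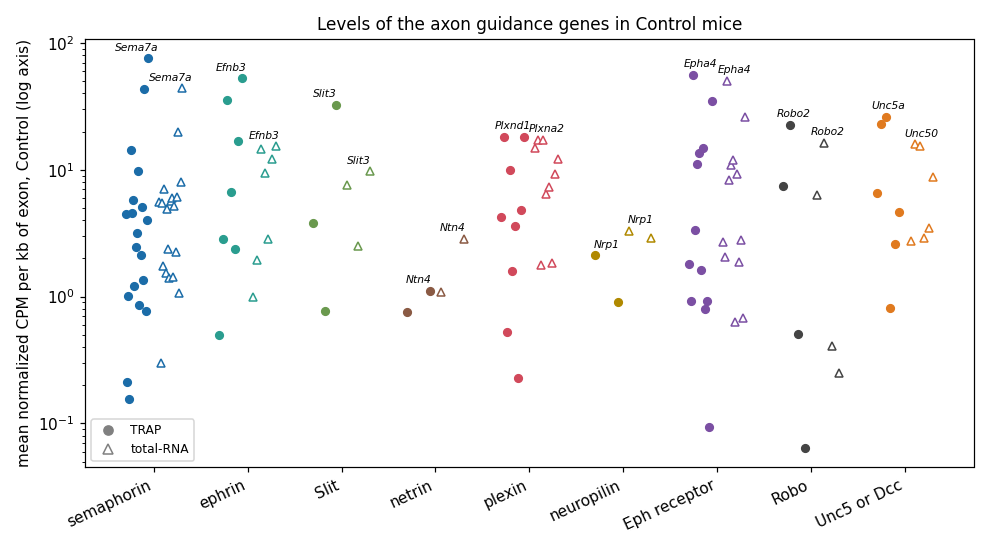
Mean level per kilobase of exon in the 3 Control mice, on a log axis, for the 64 tested genes by family, with filled circles for TRAP and open triangles for total-RNA. Sema7a at 75.6 CPM per kb in TRAP is the highest point, and the leading gene of each family in each pool is named.

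The first comparison asked which guidance genes were over- or under-represented in the ribosomal pool. In Control mice 51 of the 64 genes differed between TRAP and total-RNA, 79.7% against 59.9% of all genes tested. Most of them were lower in TRAP, 33 genes (51.6%, against 30.4% of all genes), while 18 were higher (28.1%, against 29.5%). With EtOH 43 genes differed (background 50.7%), 16 higher (24.3%) and 27 lower (26.5%). With EtOH + ABT-888 45 differed (background 41.0%), 17 higher (19.5%) and 28 lower (21.5%). In Control mice the median log2 fold change was -0.49 over the 64 genes and 0.02 over all genes.

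The same direction held across treatments. In all 3 treatments 40 of the 64 genes were called, 62.5% against 36.0% of all genes. Each of the 40 kept its direction, 15 higher and 25 lower in TRAP. How many of all genes kept theirs was not counted. In none of the treatments were 11 genes called, among them Epha4, Epha6, Epha7 and Plxna2, and 13 were called in some. The 3 comparisons use separate mice.

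Receptors leaned to the lower side. In Control mice 19 of 32 receptors were lower in TRAP and 6 higher, with a median log2 fold change of -0.72, and of 31 ligands 14 were lower and 11 higher, with a median of -0.47. A difference between ligands and receptors was not tested. Of 9 plexins, 7 were lower in Control and in EtOH mice and 5 with EtOH + ABT-888, where 30.4%, 26.5% and 21.5% of all genes were lower, and of 2 neuropilins 2, 0 and 1 were lower in the same order. A fit with the mouse as a block, which pairs the libraries of a mouse, also called Nrp1 and Nrp2 with EtOH. With EtOH + ABT-888 it also called Nrp1, Plxna4 and Plxnb2. No family was tested against another. Plxnd1, a receptor for Sema3e, was the one plexin that was higher.

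Among the ligands higher in TRAP, Efnb3 read 166, 213 and 123 CPM in the 3 Control_TRAP libraries and 47.7, 51.9 and 46.8 CPM in the Control_total-RNA libraries. Slit3, a secreted repellent, read 215, 182 and 195 CPM against 62.0, 58.8 and 56.4 CPM. The groups did not overlap for either gene. On the log2 scale the fold change was 1.76 ± 0.16 (SE) for Efnb3 and 1.72 ± 0.10 for Slit3, with adjusted p of 4.45e-06 and 1.60e-07 by edgeR's quasi-likelihood test. In EtOH and EtOH + ABT-888 mice Efnb3 was higher by 1.01 and 1.30, and Slit3 by 1.82 and 1.85.

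Other ligands higher in TRAP were Sema3f, a secreted semaphorin that acts through Nrp2 (log2 fold change 1.53, 1.51 and 1.95 in Control, EtOH and EtOH + ABT-888), Efna3 (1.26, 1.28 and 1.40), Sema5b (1.17, 1.504 and 1.34) and Sema6b (1.09, 1.09 and 1.13). Efna3 shares 344 exon bases with Gm15998 on the opposite strand, and the strand setting of the counting is not given in the sources used here.

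Among the receptors, Dcc, the netrin receptor that mediates attraction, read 102, 78.0 and 80.3 CPM in Control_TRAP and 35.2, 38.8 and 35.1 CPM in Control_total-RNA. Epha8, an Eph receptor bound by A-type ephrins, read 7.56, 9.23 and 6.30 CPM against 2.98, 2.93 and 2.93 CPM. TRAP lay above total-RNA in every library for both genes. Log2 fold changes of Dcc were 1.23, 1.503 and 1.57 in Control, EtOH and EtOH + ABT-888, and those of Epha8 were 1.37, 1.68 and 1.81.

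Among the genes lower in TRAP in all 3 treatments, Sema3d and Plxnb3 had the largest deficits in Control mice. Sema3d, a secreted semaphorin, read 2.02, 0.719 and 1.31 CPM in Control_TRAP and 16.7, 12.5 and 15.8 CPM in Control_total-RNA. Plxnb3, a plexin known from oligodendrocytes, read 1.49, 0.940 and 1.99 CPM against 12.6, 13.4 and 9.81 CPM. Every TRAP library lay below every total-RNA library for both. The log2 fold changes in Control mice were -3.59 ± 0.29 and -3.03 ± 0.27 (SE), with adjusted p of 1.46e-06 and 3.31e-06 by edgeR's quasi-likelihood test.

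Ephb4 and Robo4, receptors known from blood vessels, were lower in TRAP at low levels, with at most 1.12 CPM in any TRAP library. Ephb4 differed by -2.88, -3.04 and -2.61 on the log2 scale in Control, EtOH and EtOH + ABT-888. Robo4 differed by -2.33, -3.02 and -2.24, but its call in Control mice was lost without the TRAP library of mouse 7 or the total-RNA library of mouse 4. Also lower were Sema3c (-2.44, -3.12 and -2.67), Sema6a (-2.19, -2.40 and -1.88), Plxnb1, the receptor for Sema4d (-2.04, -2.48 and -2.15), and Plxna1, a receptor for class 3 semaphorins (-1.84, -1.71 and -2.13). Plxna1 shares 970 exon bases with Gm26811 on the opposite strand and Plxnb1 shares 257 with Gm7628.

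**Figure D2:**
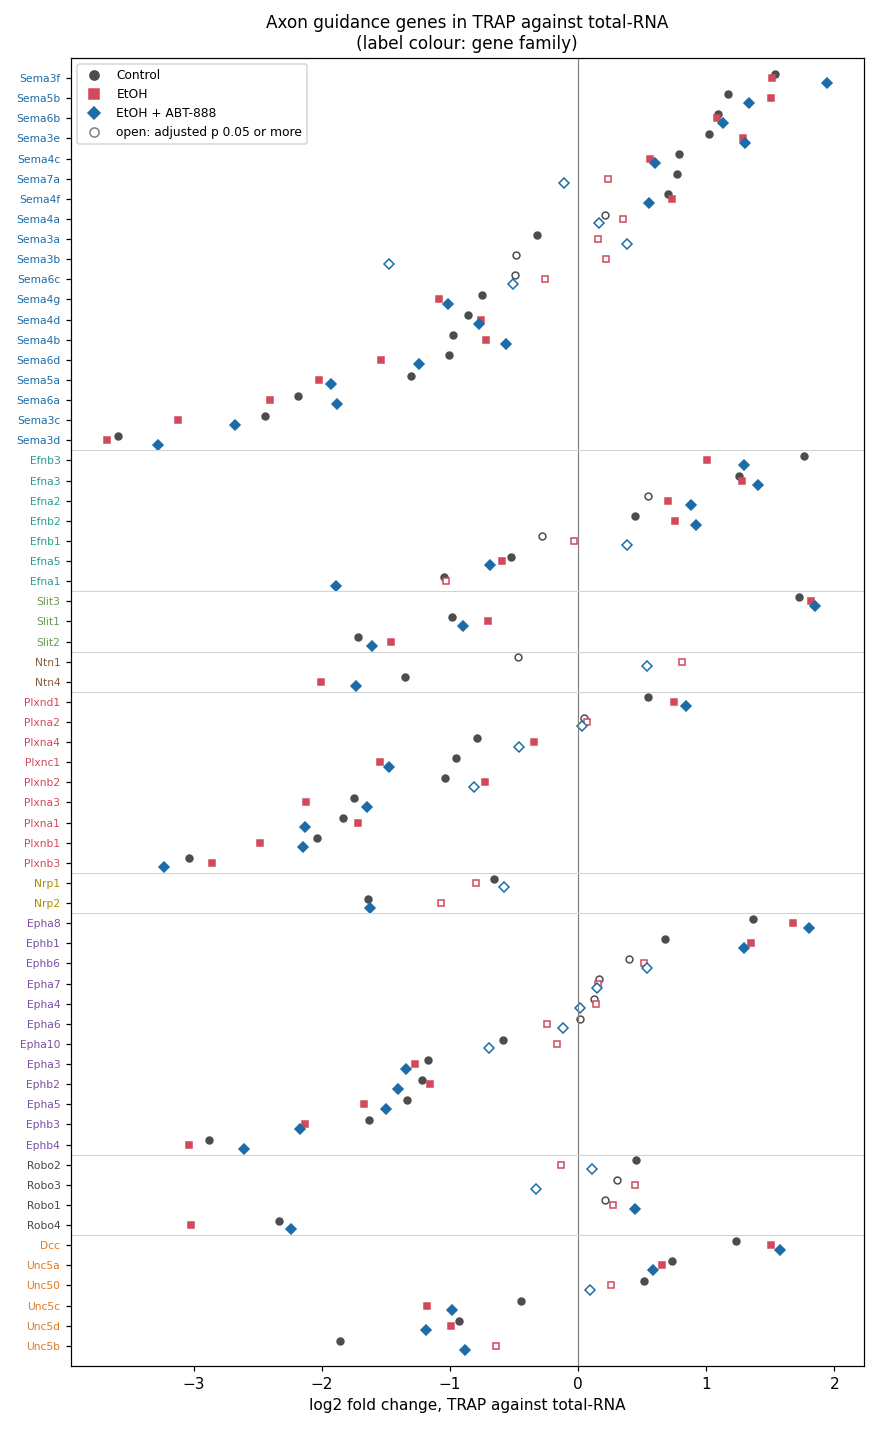
Log2 fold change of TRAP against total-RNA for the 64 tested genes, in Control (circles), EtOH (squares) and EtOH + ABT-888 (diamonds), filled where the adjusted p was under 0.05. The points run from -3.68 for Sema3d in EtOH mice to 1.95 for Sema3f in EtOH + ABT-888 mice, and 40 genes are filled in all 3 treatments.

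These TRAP deficits stood beside lower glial and vascular markers, whose median log2 fold change in Control mice was -3.35 for astrocytes, -2.80 for oligodendrocytes, -3.67 for microglia, -3.05 for endothelium and -2.88 for mural cells. Summed over each list, endothelial markers read 4.04 to 8.86 CPM in Control_TRAP and 54.8 to 73.3 CPM in Control_total-RNA, and oligodendrocyte markers 338 to 440 CPM against 2285 to 2553 CPM. Their part in the values of single guidance genes was not tested.

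With EtOH, 5 of the 64 genes changed in TRAP against Control, 4 lower and 1 higher. This is 7.81% against 5.24% of all genes tested, so the count lay near the background. By direction, 1.56% were higher (background 2.77%) and 6.25% lower (background 2.47%). The 4 that fell were the semaphorins Sema7a and Sema5a, the plexin Plxnc1 and the netrin receptor Unc5c, and the one that rose was Epha8. Sema7a and Plxnc1 are a known ligand and receptor pair.

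Sema7a read 247, 287 and 214 CPM in Control_TRAP and 82.4, 50.7, 95.6 and 153 CPM in EtOH_TRAP. The groups did not overlap, and EtOH mouse 9 had the highest EtOH value. The mean was 249 ± 36.3 CPM (SD, n = 3) in Control and 95.3 ± 42.5 CPM (n = 4) with EtOH. The log2 fold change was -1.37 ± 0.27 (SE), with an adjusted p of 0.0176 by edgeR's quasi-likelihood test. Sema7a (ENSMUSG00000038264.8) lies at chr9:57940112-57962865.

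Its receptor Plxnc1 read 38.8, 32.6 and 50.4 CPM in Control_TRAP and 20.9, 14.04, 14.1 and 25.7 CPM with EtOH. No EtOH library reached the lowest Control library. Its log2 fold change was -1.11 ± 0.24 (SE), with an adjusted p of 0.0229 by edgeR's quasi-likelihood test. Plxnc1 (ENSMUSG00000074785.5, chr10:94790866-94944835) shares 115 exon bases with Gm48718 on the same strand.

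Sema5a, a transmembrane semaphorin with thrombospondin repeats, read 36.5, 34.1 and 47.6 CPM in Control_TRAP and 17.1, 8.57, 23.2 and 22.3 CPM with EtOH. Its groups did not overlap either, and mouse 5 was the lowest. It fell by 1.13 ± 0.28 (SE) on the log2 scale (adjusted p = 0.0404, edgeR's quasi-likelihood test). The gene (ENSMUSG00000022231.9) lies at chr15:32244810-32696341.

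Unc5c, a netrin receptor that mediates repulsion, read 50.5, 45.9 and 53.3 CPM in Control_TRAP and 21.1, 19.04, 26.3 and 29.7 CPM in EtOH_TRAP. All 4 EtOH libraries lay below the Control libraries. On the log2 scale the difference was -1.04 ± 0.18 (SE), and the adjusted p of 0.0115 by edgeR's quasi-likelihood test was the smallest of the 64 genes. Unc5c (ENSMUSG00000059921.15, chr3:141465216-141834924) shares 118 exon bases with Gm15688 on the opposite strand.

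Epha8 rose, from 7.56, 9.23 and 6.30 CPM in Control_TRAP to 12.8, 24.3, 15.7 and 14.3 CPM with EtOH. Every EtOH library exceeded every Control library, and mouse 5 was the highest. Its log2 fold change was 1.15 ± 0.28 (SE), with an adjusted p of 0.0354 by edgeR's quasi-likelihood test. Epha8 (ENSMUSG00000028661.8) lies at chr4:136929419-136956816.

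The 5 calls in TRAP rested on all 3 Control libraries. Without any one of these, 0 guidance genes were called. Over all genes, 94, 84 and 112 were called without Control mouse 1, 4 and 7, against 737 in the main fit. The adjusted p by edgeR's quasi-likelihood test was up to 0.0704 for Unc5c, 0.0917 for Sema7a, 0.138 for Plxnc1, 0.165 for Epha8 and 0.186 for Sema5a. The log2 fold changes kept their sign and ranged from -1.70 to -1.17 for Sema7a and from 0.90 to 1.31 for Epha8 when each of the 7 libraries was left out in turn. Without EtOH mouse 9, 11 guidance genes were called, and without mouse 5, 3 were, with Epha8 and Plxnc1 lost. Over all genes these fits called 1550 and 372. Sema5a was also lost without mouse 2, and Epha8 without mouse 8. Other settings called more guidance genes, 10 with exactTest, 12 with DESeq2 and 13 without the filter on low counts, and each of these held the same 5. Over all genes these settings called 1372, 1523 and 1472.

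**Figure D3:**
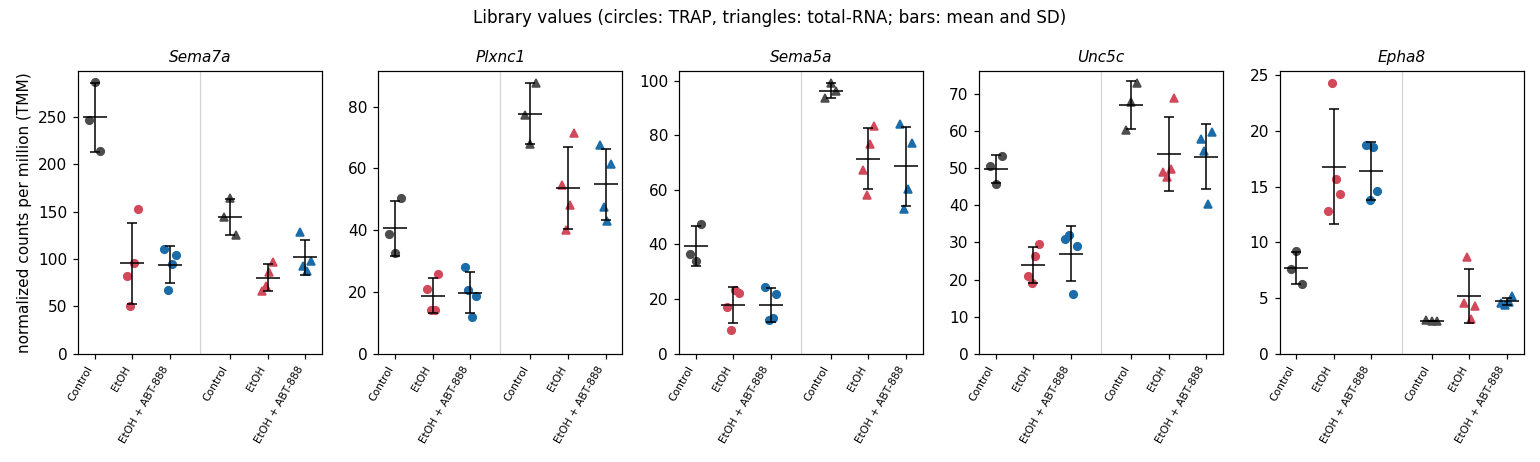
Normalized CPM of Sema7a, Plxnc1, Sema5a, Unc5c and Epha8 in each library, TRAP as circles and total-RNA as triangles, by treatment, with bars for the mean and SD (n = 3 Control, 4 EtOH and 4 EtOH + ABT-888). In TRAP the 3 Control libraries of Sema7a lie between 214 and 287 CPM, above all 8 treated libraries, and those of Epha8 between 6.30 and 9.23 CPM, below all 8.

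Some markers moved in the same TRAP libraries. Neurod6 fell by 1.68 on the log2 scale with EtOH (adjusted p = 0.0116, edgeR's quasi-likelihood test), from 17.6 to 25.3 CPM in Control_TRAP to 3.94 to 9.16 CPM, the one called excitatory marker of 6. The median log2 fold change of the 6 markers was -0.94, and their summed level was 4858 to 6201 CPM in Control_TRAP and 4240 to 5682 CPM in EtOH_TRAP. Tbr1 (-1.10), Slc17a7 (-0.77) and Nrgn (-0.59) did not pass the test, and Camk2a stood at 0.47. Of 7 microglia markers only P2ry12 was called (-3.46), and the others ranged from -1.69 for Cx3cr1 to 1.11 for C1qb. Of the 5 striatal markers only Drd2 was called (-0.56), while Ppp1r1b stood at 0.52 and the median was 0.10. The part of these markers in the change of Sema7a, Plxnc1, Sema5a and Unc5c was not tested. Between treatments, in bulk RNA of this kind, fewer cells of a type and less RNA per cell cannot be told apart.

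In total-RNA, EtOH changed 20 of the 64 genes, 31.2% against 17.6% of all genes. Fewer rose than fell: 5 genes were higher (7.81%, against 9.04% of all genes) and 15 lower (23.4%, against 8.6%). Of the 32 receptors, 10 fell and 1 rose, and of the 31 ligands 5 fell and 4 rose. The median log2 fold change was -0.18 for receptors and -0.07 for ligands, against 0.00 over all genes, and a difference between receptors and ligands was not tested.

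Among the ligands that fell, Sema7a read 144, 164 and 125 CPM in Control_total-RNA and 65.8, 71.9, 86.3 and 96.9 CPM with EtOH. Slit2, a secreted ligand of the Robo receptors, read 65.6, 67.4 and 59.6 CPM against 31.8, 27.4, 34.0 and 46.9 CPM. Neither gene's groups overlapped. The log2 fold changes were -0.85 ± 0.14 and -0.87 ± 0.16 (SE), with adjusted p of 0.0023 and 0.00346 by edgeR's quasi-likelihood test. Sema4a (-0.75), Ntn4 (-0.58) and Sema5a (-0.43) also fell.

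Among the receptors, Ephb6, an Eph receptor without kinase activity, read 105, 110 and 78.1 CPM in Control_total-RNA and 50.1, 50.1, 59.98 and 59.5 CPM with EtOH. Ephb2, a receptor for B-type ephrins at excitatory synapses, read 24.4, 26.3 and 20.7 CPM against 13.4, 13.8, 13.98 and 16.9 CPM. In both, all EtOH libraries lay below all Control libraries. Ephb6 changed by -0.83 ± 0.13 (SE) and had the smallest adjusted p of the 64 genes in this comparison (0.00177, edgeR's quasi-likelihood test), and Ephb2 changed by -0.71 ± 0.14 (adjusted p = 0.00551).

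Robo3, a Robo receptor known for the crossing of commissural axons, had the largest change, at a low level. It read 2.74, 3.41 and 2.27 CPM in Control_total-RNA and 0.380, 0.472, 1.10 and 1.03 CPM with EtOH, again without overlap. The log2 fold change was -1.95 ± 0.36 (SE), with an adjusted p of 0.00393 by edgeR's quasi-likelihood test. In TRAP, where Robo3 read 3.30, 4.81 and 2.38 CPM against 0.363, 0.973, 1.13 and 1.56 CPM, the groups did not overlap either, and the log2 fold change of -1.76 did not pass (adjusted p = 0.065).

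The other receptors that fell were Nrp1, the coreceptor of class 3 semaphorins (log2 fold change -0.86), Plxna3 (-0.84), the netrin receptor Unc5b (-0.76), Ephb1 (-0.59), Plxnc1 (-0.53), Dcc (-0.48) and Epha7 (-0.43). Ephb1 read 63.6, 71.1 and 58.4 CPM in Control_total-RNA and 38.9, 44.9, 48.4 and 38.8 CPM with EtOH, with no overlap. Ephb1 shares 152 exon bases with Gm26846 on the opposite strand. The groups of Plxnc1 overlapped in total-RNA.

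Efna1, a membrane-anchored ephrin, rose most, from 1.82, 1.83 and 1.78 CPM in Control_total-RNA to 5.64, 3.18, 4.39 and 4.35 CPM with EtOH. The lowest EtOH library lay well above the Control libraries, which were close to each other. Its log2 fold change was 1.28 ± 0.24 (SE), with an adjusted p of 0.00449 by edgeR's quasi-likelihood test. In TRAP, Efna1 read 1.17, 0.885 and 0.681 CPM against 2.98, 0.741, 1.08 and 4.07 CPM, and the groups overlapped.

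The semaphorins Sema4c and Sema4b also rose. Sema4c read 5.47, 6.86 and 7.10 CPM in Control_total-RNA and 9.91, 10.5, 9.79 and 9.52 CPM with EtOH (log2 fold change 0.62), and it shares 334 exon bases with D430040D24Rik on the opposite strand. Sema4b read 12.5, 14.6 and 13.3 CPM against 19.01, 22.9, 17.6 and 16.7 CPM (0.51). Both sets of EtOH libraries lay above their Control libraries.

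Slit1, a secreted ligand like Slit2, rose where Slit2 fell. It read 51.8, 45.5 and 37.0 CPM in Control_total-RNA and 54.2, 68.7, 61.1 and 59.7 CPM with EtOH (log2 fold change 0.45, adjusted p = 0.0334 by edgeR's quasi-likelihood test). Unc5a, a netrin receptor, read 64.2, 75.7 and 54.2 CPM against 85.5, 108, 78.4 and 82.3 CPM (0.46, adjusted p = 0.0399). The highest Control library lay close below the lowest EtOH library in both genes. Unc5a shares 34 exon bases with Hk3 on the opposite strand.

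Of the 20 calls in total-RNA, 7 held whichever of the 7 libraries was left out, those of Sema7a, Slit2, Ephb1, Ephb2, Ephb6, Robo3 and Efna1. Without Control mouse 1 or Control mouse 4, 9 guidance genes were called, without EtOH mouse 5, 10 were, and without EtOH mouse 9, 29 were. Over all genes these fits called 943, 878, 1628 and 3616, against 2482 in the main fit. A single fit over all 22 libraries, in which TRAP and total-RNA share one estimate of the spread, called only Slit2 and Robo3 of the 20. Over all genes that single fit called 151.

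Markers of several cell types moved in the same total-RNA libraries. Of 7 microglia markers 4 fell, Cx3cr1 (log2 fold change -2.47), P2ry12 (-2.35), Tmem119 (-1.53) and Csf1r (-0.80), while C1qa (0.07), C1qb (-0.01) and C1qc (-0.16) did not pass the test. The summed level of the 7 was 271 to 285 CPM in Control_total-RNA and 115 to 174 CPM with EtOH. Of 6 excitatory markers 3 fell, Neurod6 (-0.99) and Nrgn (-0.58) among them, while Camk2a (0.20) did not pass the test. Of the vascular markers, Tek (-0.99) and Flt1 (-0.45) of 5 endothelial and Rgs5 (-0.58) of 4 mural markers fell, and the mural sum was 79.9 to 85.2 CPM in Control_total-RNA and 55.3 to 71.1 CPM with EtOH. Gpr17 (-1.07), of 3 oligodendrocyte precursor markers, and Aqp4 (-0.41), of 6 astrocyte markers, fell, while the astrocyte marker Gfap (0.75), the oligodendrocyte marker Mobp (0.79), the inhibitory marker Gad2 (0.40) and the striatal marker Ppp1r1b (0.67) rose. The part of these markers in the guidance gene values was not tested.

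Sema7a, Plxnc1 and Sema5a were called with EtOH in both pools and fell in both, while Unc5c and Epha8 were called in TRAP alone and 17 genes in total-RNA alone. In total-RNA, Unc5c changed by -0.31 and Epha8 by 0.82, and neither passed the test. TRAP and total-RNA libraries come from the same mice, so their values are not independent. A test of the difference, the interaction of EtOH with the RNA pool over EtOH and Control mice, called 0 of the 64 genes (background 0.0213%) by edgeR's quasi-likelihood test, and 5 had an unadjusted p under 0.05, as did 4.87% of all genes. A call in one pool alone was thus not shown to differ between the pools.

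The 3 smallest unadjusted p in that interaction test were those of Robo2, Ephb1 and Efnb3, none of which passed. Robo2, a Slit receptor, read 395, 374 and 383 CPM in Control_TRAP against 202, 206, 338 and 325 CPM with EtOH, and 281, 283 and 269 CPM in Control_total-RNA against 241, 285, 323 and 309 CPM. Ephb1 read 103, 118 and 91.3 CPM in Control_TRAP against 89.0, 111, 140 and 101 CPM, beside its fall in total-RNA. Efnb3 read 111, 166, 110 and 100 CPM in EtOH_TRAP and 62.5, 77.9, 51.2 and 47.2 CPM in EtOH_total-RNA, with the Control values given above. The interaction on the log2 scale, positive where EtOH raised TRAP more than total-RNA, was -0.58 for Robo2, 0.67 for Ephb1 and -0.75 for Efnb3, with adjusted p of 0.91, 0.916 and 0.916 by edgeR's quasi-likelihood test.

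**Figure D4:**
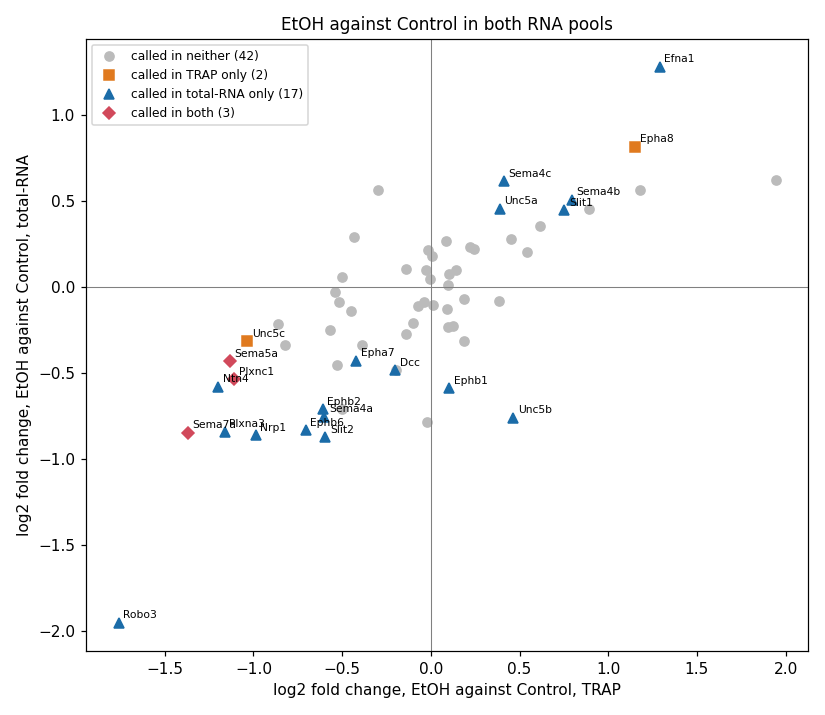
Log2 fold change of EtOH against Control for the 64 tested genes, TRAP on the horizontal and total-RNA on the vertical axis, marked by the pool in which the gene was called. The 3 diamonds, Sema7a, Plxnc1 and Sema5a, lie at the lower left, 17 triangles were called in total-RNA, 2 squares in TRAP and 42 grey points in neither.

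With EtOH + ABT-888 against Control, 1 of the 64 genes changed in TRAP (background 0.476%), and this was Sema7a. It read 111, 66.8, 94.7 and 104 CPM in EtOH + ABT-888_TRAP, all below the 3 Control libraries. The log2 fold change was -1.40 ± 0.18 (SE), with an adjusted p of 0.0206 by edgeR's quasi-likelihood test, beside -1.37 with EtOH alone, which was measured against the same Control libraries. The call was lost without any one Control library, without mouse 6 or without mouse 11. The adjusted p was then up to 0.170 by edgeR's quasi-likelihood test, and 0 of all genes were called in each of these fits.

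The other 4 genes called with EtOH in TRAP did not pass with EtOH + ABT-888. Their libraries read 18.7, 13.8, 18.6 and 14.6 CPM for Epha8, 24.6, 12.4, 12.95 and 21.9 CPM for Sema5a, 28.0, 20.5, 11.8 and 18.8 CPM for Plxnc1, and 30.9, 31.9, 16.01 and 28.9 CPM for Unc5c. None of these groups overlapped with Control. The log2 fold changes against Control were 1.11, -1.12, -1.03 and -0.88, beside 1.15, -1.13, -1.11 and -1.04 with EtOH alone, with adjusted p of 0.0863, 0.0887, 0.128 and 0.133 by edgeR's quasi-likelihood test. Without the TRAP library of mouse 3, which lay beside the Control libraries on the first component, 4 guidance genes were called in TRAP, among them Plxnc1 and Sema5a. Over all genes that fit called 373, against 67 in the main fit. Other tools called Epha8, Sema5a, Plxnc1 and Unc5c too. The exactTest function called 6 guidance genes and DESeq2 7, beside 318 and 420 over all genes.

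In the same TRAP libraries 2 of 6 excitatory markers fell against Control, Neurod6 (-1.73) among them, with a median log2 fold change of -1.02. The 6 oligodendrocyte markers ranged from 0.45 to 1.91 with a median of 0.87, and 0 of them were called by edgeR's quasi-likelihood test, with an unadjusted p under 0.05 for 2, Mobp and Mbp. Their summed level was 338 to 440 CPM in Control_TRAP, 318 to 722 CPM in EtOH_TRAP and 317 to 1455 CPM in EtOH + ABT-888_TRAP. In total-RNA, Neurod6 (-0.80) was the one excitatory marker called with EtOH + ABT-888, and 0 of 7 microglia markers were called, with an unadjusted p under 0.05 for 2, P2ry12 (-1.76) and Csf1r (-0.55, the median of the list). The part of these markers in the guidance gene values was not tested.

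In total-RNA, EtOH + ABT-888 changed 0 of the 64 genes (background 0.263%) by edgeR's quasi-likelihood test, while 19 had an unadjusted p under 0.05, 5 higher and 14 lower, where 15.9% of all genes had one. The exactTest function called 5 and DESeq2 7, beside 544 and 621 over all genes. Without mouse 3, 12 guidance genes were called, among them Sema7a, Slit2, Robo3, Ephb6 and Efna1. Over all genes that fit called 870, against 37 in the main fit. In the main fit the smallest adjusted p of the 64 (edgeR's quasi-likelihood test) were 0.068 for Slit2 and 0.0702 for Efna1 and Robo3.

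Side by side, the genes called with EtOH in total-RNA had these log2 fold changes against the same Control libraries, EtOH first and EtOH + ABT-888 second. Among the ligands that fell they were -0.87 and -0.83 for Slit2, -0.85 and -0.50 for Sema7a, -0.75 and -0.70 for Sema4a, -0.58 and -0.31 for Ntn4, and -0.43 and -0.49 for Sema5a. Among the Eph receptors and Robos they were -1.95 and -1.26 for Robo3, -0.83 and -0.44 for Ephb6, -0.71 and -0.24 for Ephb2, -0.59 and -0.53 for Ephb1, and -0.43 and -0.29 for Epha7. For the remaining receptors they were -0.86 and -0.85 for Nrp1, -0.84 and -0.63 for Plxna3, -0.76 and -0.36 for Unc5b, -0.53 and -0.50 for Plxnc1, and -0.48 and -0.37 for Dcc. Of these genes Robo3 lay farthest from 0 with both treatments. Among those that rose they were 1.28 and 1.18 for Efna1, 0.62 and 0.57 for Sema4c, 0.51 and 0.28 for Sema4b, 0.46 and 0.35 for Unc5a, and 0.45 and 0.29 for Slit1. For Efna1 the EtOH + ABT-888 libraries read 2.83, 3.96, 4.70 and 4.82 CPM, for Slit2 48.9, 28.6, 31.8 and 35.1 CPM, and for Sema7a 128, 92.9, 87.4 and 97.8 CPM. In Slit2 and Sema7a the highest of these libraries was that of mouse 3, and the Sema7a group overlapped with Control.

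**Figure D5:**
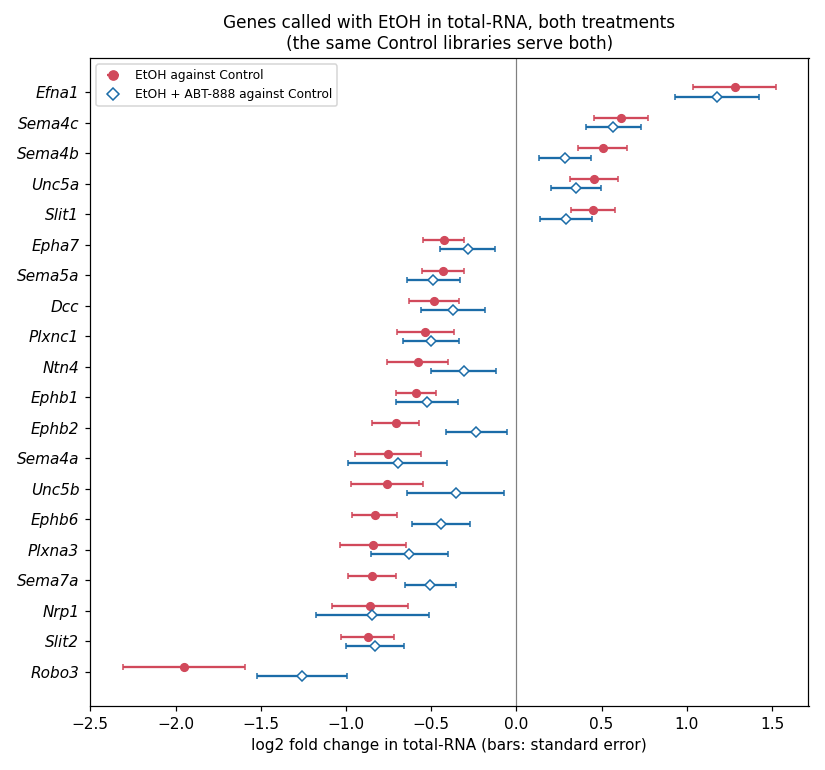
Log2 fold change in total-RNA, with its standard error, of the 20 genes called with EtOH, for EtOH against Control (filled circles) and EtOH + ABT-888 against Control (open diamonds). Robo3 lies farthest to the left at -1.95 and -1.26, Efna1 farthest to the right at 1.28 and 1.18, and the same Control libraries serve both.

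The direct comparison of EtOH + ABT-888 with EtOH asked whether ABT-888 changed the guidance genes beyond EtOH. It called 0 of the 64 genes in TRAP (background 0.0%) and 0 in total-RNA (background 0.0%), also with exactTest and with DESeq2. In TRAP 0 guidance genes had an unadjusted p under 0.05 (0.966% of all genes), and in total-RNA 3 had (1.91% of all genes), all higher with ABT-888. A p that misses the threshold does not show that the treatments act alike.

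Those 3 genes of total-RNA were Ephb2, Ephb6 and Sema7a. Ephb2 read 26.6, 18.2, 16.1 and 19.8 CPM with EtOH + ABT-888, against 13.4 to 16.9 CPM with EtOH, and Ephb6 read 93.9, 65.8, 60.5 and 67.7 CPM against 50.1 to 59.98 CPM. The groups overlapped for Ephb2 and Sema7a, and for Ephb6 the lowest EtOH + ABT-888 library lay close above the highest EtOH library. The highest value of all 3 was that of mouse 3. The log2 differences were 0.47 ± 0.17, 0.39 ± 0.15 and 0.34 ± 0.16 (SE), each with an adjusted p of 1.00 by edgeR's quasi-likelihood test.

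In TRAP the smallest unadjusted p were those of Nrp2, Unc5d and Epha10, and all 3 groups overlapped. Nrp2, the neuropilin for Sema3f, read 54.2, 23.2, 8.29 and 12.4 CPM with EtOH, where mouse 2 was highest. It read 23.2, 8.09, 3.21 and 11.1 CPM with EtOH + ABT-888. Unc5d read 31.9, 39.8, 41.6 and 55.9 CPM against 34.1, 34.2, 27.2 and 33.8 CPM. Epha10, an Eph receptor without kinase activity, read 24.2, 29.7, 15.1 and 26.8 CPM against 18.2, 8.09, 23.5 and 16.8 CPM. The log2 differences were -1.11 ± 0.57, -0.39 ± 0.21 and -0.52 ± 0.30 (SE), with unadjusted p of 0.073, 0.0761 and 0.106 and an adjusted p of 1.00 for each by edgeR's quasi-likelihood test.

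Other genes of guidance signalling were followed in 2 lists. Of 23 further cues and coreceptors tested, 4 fell and 0 rose with EtOH in TRAP, with a median log2 fold change of -0.34, and 4 fell and 0 rose in total-RNA, with a median of -0.18. Of all genes, 2.47% fell in TRAP and 8.6% in total-RNA. Chl1, an adhesion molecule that acts with neuropilin 1, fell in both pools, by 1.04 in TRAP and by 0.57 in total-RNA. Ntng2, a membrane-anchored netrin G, fell by 1.38 in TRAP, and L1cam, a coreceptor of Sema3a, fell by 0.74 in total-RNA. With EtOH + ABT-888, 0 of the 23 were called in either pool.

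Of 59 intracellular effectors tested, 3 rose and 2 fell with EtOH in TRAP, and 3 rose and 6 fell in total-RNA. Of all genes 5.24% were called in TRAP and 17.6% in total-RNA, so the effectors lay near the background. Dpysl4, a collapsin response mediator protein, rose by 1.13 in TRAP and by 0.65 in total-RNA. Tiam1, an activator of Rac1, rose by 0.90 in TRAP, where the growth cone protein Gap43 fell by 0.59 and the kinase Rock2 by 0.56. In total-RNA, Abl2 rose by 0.64, and Mical2, an actin oxidase that acts downstream of plexins, fell by 0.88 and Dock1 by 0.60. With EtOH + ABT-888 against Control, 0 of the 59 were called in either pool.

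Between the pools of Control mice, where 29.5% of all genes were higher in TRAP and 30.4% lower, 18 of the 59 effectors were higher and 24 lower, among them Srgap1, which acts downstream of Robos (log2 fold change 2.07), Dock1 (-3.52) and Rock1 (-1.42). Of the 23 cues and coreceptors, 4 were higher, with Flrt3 (0.71) and Rgmb (0.59), and 11 lower, with Kdr, the VEGF receptor of endothelium (-3.46), and Met (-3.24). The interaction and the direct comparison of EtOH + ABT-888 with EtOH called 0 genes of either list.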

How the data were processed

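Ribosomal RNA was depleted and total RNA libraries were sequenced as 50-base pairs. The authors aligned reads to mm10 with STAR and deposited, per gene, the raw whole-read counts of featureCounts, not normalized. The ENSEMBL annotation included non-coding genes. Tool versions, strand setting and the handling of reads that map to several places are not given in the sources used here. All sample columns were used (0 left out).

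Gene IDs were matched to GENCODE M21, which held 38872 of the 39056 IDs, and 184 were not found. Overlaps with other genes were taken from its exons. The study's filter asks for 500 or more counts summed over libraries and for counts in 3 or more libraries, and it kept 14072 genes and removed 24984. In R 4.3.3, edgeR 4.0.16 (with limma 3.58.1) gave TMM factors and the quasi-likelihood test on the groups compared, with the interaction fitted over all 22 libraries and Benjamini-Hochberg adjustment over all genes. SEs were derived from the quasi-likelihood F. Normalized CPM used TMM factors over all 22 libraries, and levels between genes were divided by exon length. The scripts were tested on simulated data.

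The alternatives were exactTest, DESeq2 1.42.0, RLE factors, no filter, a single fit over all 22 libraries, the mouse as a block, and leaving out each library. Libraries pair by the animal number in the labels. After removal of group means, both libraries from one mouse correlated, across genes, with r from 0.102 to 0.173 in Control, 0.326 to 0.408 in EtOH and 0.117 to 0.622 in EtOH + ABT-888.

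The guidance genes and lists were chosen with earlier results of these data known. The genes named between the pools are the 8 with the largest positive and the 8 with the largest negative log2 fold change in Control among those called in all 3 treatments. Against Control, every called gene is named, with library values for the 5 smallest p per pool and direction with EtOH, and otherwise the 3 smallest unadjusted p. From the 2 lists, the 2 genes per direction with the smallest p among those called are named, and results of a few of the listed genes are left out. Epha4, Epha6, Epha7 and Plxna2 as uncalled genes, and single genes named only as lost or gained calls, were named after their values were seen. Sequences are RefSeq promoters on GRCm38.p6.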

Additional observations from a re-analysis of the deposited data

Results flagged for a closer look

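In the groups of 4 libraries, the library values of the 20 genes given in full were searched for a lowest or highest library that stood apart from the other 3. Of 80 groups 3 were flagged, where chance flags about 1 in 20. Unc5c in EtOH_total-RNA was highest in mouse 9 at 68.9 CPM, with the next at 49.7 CPM. Unc5d in EtOH_total-RNA was also highest in mouse 9, at 116 CPM, with the next at 76.2 CPM. Unc5d in EtOH + ABT-888_TRAP was lowest in mouse 10, at 27.2 CPM, with the next at 33.8 CPM. Without the total-RNA library of mouse 9, 29 guidance genes were called with EtOH, Unc5c among them, beside 3616 over all genes. None of these 3 values belonged to a group in which the gene was called against Control in the same pool.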

How the results depend on the processing

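The 165 calls of guidance genes, summed over all comparisons, kept their direction under every alternative, and 0 were reversed. All 165 kept their side of the threshold with exactTest and DESeq2, 164 with RLE factors, 158 without the filter and 139 in the single fit over all 22 libraries. With the mouse as a replicate block, the counts of TRAP against total-RNA were 53 in Control (main 51), 50 in EtOH (43) and 51 in EtOH + ABT-888 (45), no call was lost, and the interaction stayed at 0. For EtOH against Control in TRAP the count was 10 with exactTest, 12 with DESeq2, 13 without the filter and 12 in the single fit (main 5). In total-RNA it was 2 in the single fit (main 20). Over all genes these fits called 1372, 1523, 1472 and 1191 in TRAP (main 737) and 151 in total-RNA (main 2482). With EtOH + ABT-888 the count of guidance genes was, in TRAP, 6, 7, 5 and 8 in the same order (main 1). In total-RNA it was 5, 7 and 3 with exactTest, DESeq2 and no filter (main 0). Over all genes these fits called 318, 420, 454 and 403 in TRAP (main 67) and 544, 621 and 544 in total-RNA (main 37). Leaving out one library gave 0 to 11 guidance genes for EtOH in TRAP and 9 to 29 in total-RNA. It gave 0 to 4 and 0 to 12 for EtOH + ABT-888, and 49 to 53, 40 to 45 and 37 to 46 for the pools. Over all genes it gave 84 to 1550 and 878 to 3616 for EtOH, and 0 to 373 and 0 to 870 for EtOH + ABT-888. The comparison of EtOH + ABT-888 with EtOH and the interaction gave 0 guidance genes in each. A fit without one Control library rests on 2, and the cause of the other shifts was not tested. Genes near 1 CPM, such as Robo3, Robo4, Ephb4 and Efna1, rest on few reads.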

Other observations

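Among genes not called with EtOH in TRAP by edgeR's quasi-likelihood test, the netrin Ntn1 had the largest positive log2 fold change of the 64, 1.94. It read 1.17, 8.02 and 5.05 CPM in Control_TRAP and 34.9, 21.2, 9.76 and 9.10 CPM in EtOH_TRAP, with the highest value in mouse 2, whose library stood apart. The groups did not overlap, the adjusted p was 0.0636 by edgeR's quasi-likelihood test, and Ntn1 was called with exactTest, without the filter and in the single fit. In total-RNA it read 5.39, 8.75 and 6.29 CPM against 12.5, 13.2, 7.97 and 8.26 CPM. Ntn1 was named after its values were seen.

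Sema7a was higher in TRAP than in total-RNA in Control mice (log2 fold change 0.77) and was not called with EtOH (0.23) or EtOH + ABT-888 (-0.11). The interaction of EtOH with the pool was -0.54 for Sema7a, with an unadjusted p of 0.137, so the pools were not shown to differ in their response.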
